A study of Mus musculus with 38 samples.

Results

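The 38 genes described here are those that act in DNA replication or in cell division, chosen by name: 14 genes of S phase and 24 genes of mitosis, out of 29411 gene names on the array. On the array 36 of them carried their current symbol, and Cdk1 and Cdc45 carried the older names Cdc2a and Cdc45l and were found by accession. Of the 38 genes, 37 were well above background on at least 6 of 38 arrays and were tested among 21856 genes. Ttk, a checkpoint kinase of mitosis, was well above background on 2 arrays and was not tested.

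The study followed gene expression in brown adipose tissue over time under different diets, in C57BL/6J mice, on 38 one-colour arrays. The animals were weaned and 3 to 4 weeks old when 30 were placed at random in each of 5 groups. LFC was a low fat diet with 10% of calories from fat, and HFC was a diet rich in fat and sucrose with 60% of calories from fat. HF5, HF20 and HF75 received the HFC diet together with 5, 20 or 75 µg of Kal-1, an aqueous plant formulation. LFC and HFC had 10 arrays each, at Day 6, 10 and 14 and at Week 0, 3, 6, 9, 12, 15 and 18, with weeks counted from day 14. The 3 Kal-1 groups had 6 arrays each, at Week 3 to 18. Each group had 1 array at a time point. Arrays of different time points therefore stood in for replicates, and each p-value measured the spread among them. Whether an array held RNA of 1 animal or a pool, and the sex of the animals, are not given in the sources used here. Age, time on the diet and, for the most part, scan day ran together and cannot be told apart.

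A cell that divides first copies its DNA in S phase. The helicase made of Mcm2 to Mcm7 is loaded on origins with the help of Cdc6 and is switched on with Cdc45, Pcna clamps the polymerases on the template, and Rrm1, Rrm2 and Tyms supply deoxynucleotides. Cyclin E (Ccne1, Ccne2) drives entry into this phase. In mitosis Cdk1 with cyclins A and B, Plk1 and the Aurora kinases condense and align the chromosomes, the Cenp and Bub proteins act at the kinetochore, and Cdc20 turns on the ligase that ends mitosis. Most of the mitosis mRNAs are made mainly in cycling cells. S phase genes are known targets of E2F factors, and mitosis genes are known to be controlled through a CHR element together with CCAAT boxes. Brown adipose tissue grows in young mice by division of precursors, and mature brown adipocytes seldom divide. In whole tissue, fewer dividing cells and less mRNA per dividing cell cannot be told apart.

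Promoters of 6 members are shown, 4 of mitosis and 2 of S phase, because they hold the elements counted below and most belong to genes described in detail. Each run holds the 160 bases before the RefSeq start site in build GRCm38.p6, written 5′ to 3′ on the strand of the gene. Capitals mark CHR words (spelled TTTGAA, or with the variant spelling TTCGAA), the CCAAT box, and E2F words, each searched on both strands. The E2F words were TTCCCGC as the first spelling, TTCGCGC as the next, TTGCCGC as another and TTGGCGC as the last. TTCGAA is its own reverse complement, and the E2F words can overlap each other.
Cdk1, chr10:69352913-69353072, strand -: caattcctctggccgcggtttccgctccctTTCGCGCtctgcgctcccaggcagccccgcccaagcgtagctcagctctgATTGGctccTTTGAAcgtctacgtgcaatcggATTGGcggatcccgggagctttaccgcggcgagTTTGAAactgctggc
Cdc20, chr4:118437344-118437503, strand -: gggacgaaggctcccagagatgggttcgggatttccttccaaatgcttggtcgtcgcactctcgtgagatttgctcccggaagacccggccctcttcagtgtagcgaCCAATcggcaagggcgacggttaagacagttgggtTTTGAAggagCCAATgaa
Top2a, chr11:99024190-99024349, strand -: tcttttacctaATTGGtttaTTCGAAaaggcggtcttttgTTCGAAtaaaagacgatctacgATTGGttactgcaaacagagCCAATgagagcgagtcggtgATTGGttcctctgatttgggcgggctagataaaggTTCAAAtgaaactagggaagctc
Cenpf, chr1:189688087-189688246, strand -: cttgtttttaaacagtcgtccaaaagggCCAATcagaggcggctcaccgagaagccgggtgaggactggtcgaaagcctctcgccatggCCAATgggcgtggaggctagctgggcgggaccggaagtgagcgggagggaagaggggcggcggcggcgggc
Mcm5, chr8:75109349-75109508, strand +: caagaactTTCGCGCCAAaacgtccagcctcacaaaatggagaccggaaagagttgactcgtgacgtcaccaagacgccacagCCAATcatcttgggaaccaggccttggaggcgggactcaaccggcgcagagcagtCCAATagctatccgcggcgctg
Mcm6, chr1:128359706-128359865, strand -: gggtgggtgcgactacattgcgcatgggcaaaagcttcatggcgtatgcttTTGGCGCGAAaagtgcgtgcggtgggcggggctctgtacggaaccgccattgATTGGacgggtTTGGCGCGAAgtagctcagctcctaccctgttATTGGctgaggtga

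Cdk1 held 2 CHR words, 2 CCAAT boxes and 1 E2F word in this stretch, and Cdc20 held 1 CHR word and 2 CCAAT boxes. The CHR word of Cenpf lay after the start site and is not shown. Mcm5 and Mcm6 held E2F words and CCAAT boxes, and no CHR word. RefSeq windows from 250 bases before to 50 bases after the start were given for 32 of the 38 genes, 12 of S phase and 20 of mitosis. A CHR word was in 15 of 20 mitosis windows (75%), in 3 of 12 S phase windows (25%) and in 5854 of 27025 windows of all genes (21.7%). A CHR word together with a CCAAT box was in 15 mitosis windows (75%), in 3 S phase windows (25%) and in 2328 of all windows (8.61%). An E2F word was in 3 mitosis windows (15%), in 7 S phase windows (58.3%) and in 2936 of all windows (10.9%). A CCAAT box was in 17 mitosis windows (85%), in 9 S phase windows (75%) and in 11096 of all windows (41.1%). A match describes the letters of a window and does not show binding.

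**Figure D1:**
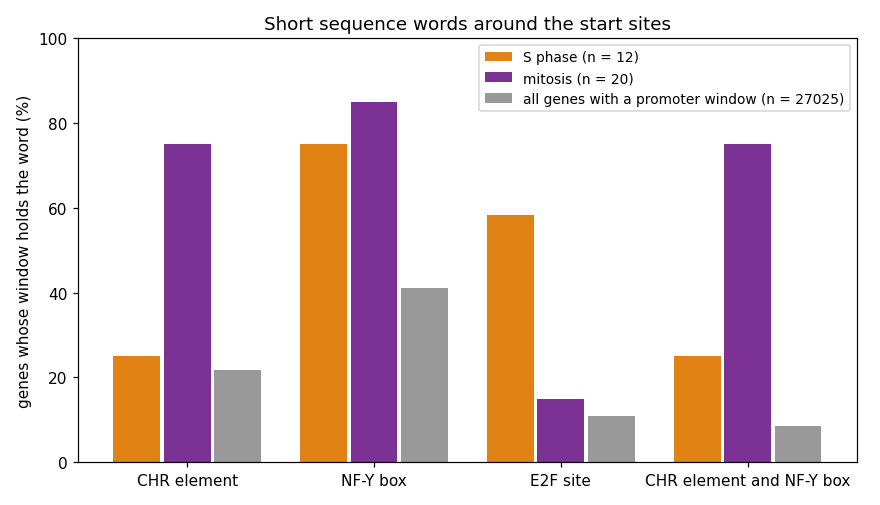
Percent of promoter windows that hold each element, on the vertical axis, for the 12 S phase genes, the 20 mitosis genes and all 27025 genes with a window. CHR words stand at 75% in the mitosis genes and 25% in the S phase genes, and E2F words at 15% and 58.3%.

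Levels are given as log2 signal relative to the 75th percentile of the array, so that 0 is the signal at that percentile and a difference of 1 is a doubling of signal. Before that scaling the 75th percentile ran from 35.1 to 1209 intensity units, and 11 arrays were above 600 (4 LFC, 2 HFC, 4 HF20, 1 HF75 and no HF5). No member was saturated on an array. Of 10 brown adipocyte markers, 8 were well above background on all 38 arrays. The mean log2 level of the 10 had a median of 3.48 over the arrays and was lowest, at -1.31, on HF75 at Week 3. Over all 38 arrays the levels of mitosis genes moved together, with a mean correlation of 0.43 over 231 pairs, against 0.17 for S phase pairs, 0.20 between the groups and 0.027 for all genes tested. These arrays share their groups, days and scaling, and the correlations are given as a description.

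Over the 20 LFC and HFC arrays the level of 5 of 23 tested mitosis genes fell with days on diet at an adjusted p under 0.05 (limma), while 118 of 21856 genes, 0.54%, fell at that threshold. The 5 were Cenpf, Plk1, Birc5, Cdk1 and Cenpe. The fit takes the LFC and HFC arrays of a time point as independent, and with scan day as a random block none of the 5 passed (adjusted p = 0.0926 to 0.132). At an unadjusted p under 0.05, 16 mitosis genes were lower over time, against 6.42% of all genes. At that threshold 1 mitosis gene was higher, against 3252 of 21856 genes. The slope was below 0 in 21 of 23, with a median of -0.85 log2 units per 10 weeks, beside 0.04 over all genes tested. The direction depended on how background was handled: with normexp background correction (offset 50) the median slope of the mitosis genes was 0.37, with 5 of 23 below 0.

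Cenpf, a large kinetochore protein of late interphase and mitosis, had the steepest slope. Its log2 level on the 8 arrays of Day 6 to Week 0 was between -2.75 and -1.28, with a median of -1.87, and on the 12 LFC and HFC arrays of Week 3 to 18 it was between -6.10 and -2.41, with a median of -4.63. All but 1 late array lay below every early array, and that one was LFC at Week 9. The slope was -1.69 log2 units per 10 weeks (SE 0.33, adjusted p = 0.0278), and 0.23 under normexp. Cenpf was well above background on 8 of 8 early arrays and on 7 of 12 late ones, so the slope rests in part on signals not well above background.

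Cdk1, the kinase that drives entry into mitosis, was between -2.86 and -1.66 on the early arrays (median -2.36) and between -5.76 and -2.86 on the late ones (median -4.49). Of 12 late arrays, 11 lay below every early array, and the remaining one, LFC at Week 9, equalled the lowest early array to 2 decimals. The slope was -1.32 (SE 0.32, adjusted p = 0.0475), and 0.40 under normexp. Cdk1 was well above background on 8 of 8 early and 4 of 12 late arrays, so the slope rests on signals that were mostly not well above background late.

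Birc5 (survivin), a subunit of the chromosomal passenger complex, was well above background on all 38 arrays. Its level was -0.39 to 1.27 on the early arrays (median 0.65) and -2.05 to 0.41 on the late ones (median -1.25). LFC at Week 9 (0.41) and HFC at Week 3 (-0.36) were the late arrays that reached the early range. The means differed 3.40-fold, and the slope was -1.16 (SE 0.25, adjusted p = 0.0381). Cenpe, the kinesin that moves chromosomes to the spindle equator, was between -1.53 and 0.40 early (median -0.30) and between -3.20 and -0.35 late (median -2.45). Its slope was -1.18 (SE 0.29, adjusted p = 0.0484), and -0.18 under normexp. Plk1, a kinase of spindle assembly and mitotic exit, was between -1.86 and -1.04 early (median -1.30) and between -3.06 and -1.68 late (median -2.50). Its slope was -0.82 (SE 0.16, adjusted p = 0.0296), and 0.18 under normexp, and 11 of 12 late arrays lay below every early one.

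**Figure D2:**
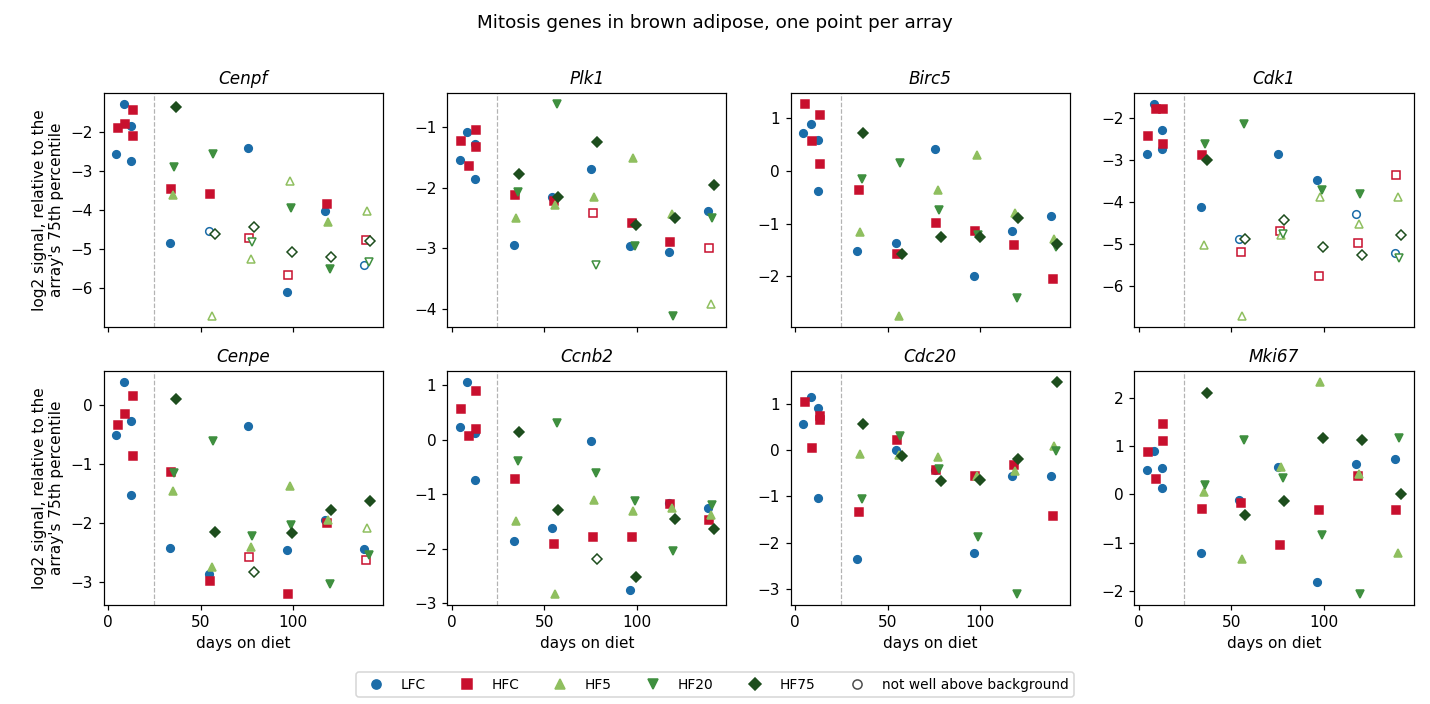
Log2 level relative to the 75th percentile of the array (vertical axis) against days on diet (horizontal axis) for Cenpf, Plk1, Birc5, Cdk1, Cenpe, Ccnb2, Cdc20 and Mki67, 1 point per array, coloured by group. Open points were not well above background, and the dashed line parts Week 0 from Week 3. Birc5 stands between -0.39 and 1.27 left of the line and between -2.05 and 0.41 on the LFC and HFC arrays right of it.

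Other mitosis genes had lower late levels whose slopes did not pass the adjusted threshold. Ccnb2 (cyclin B) was between -0.74 and 1.06 early (median 0.22) and between -2.76 and -0.02 late (median -1.55), a 3.39-fold difference of means with a slope of -1.04 (SE 0.28, adjusted p = 0.0574). Ccna2 (cyclin A), with means of -1.05 early and -2.61 late, had a slope of -0.92 (adjusted p = 0.0705). Top2a, which untangles sister chromatids, had means of -2.68 and -4.39 and a slope of -0.98 (adjusted p = 0.122), and was well above background on 5 of 12 late arrays. For both of these, 11 of 12 late arrays lay below every early array. Cdc20, well above background on all 38 arrays, was between -1.04 and 1.15 early (median 0.70) and between -2.36 and 0.22 late (median -0.55), so its ranges overlapped. Mki67, the gene of the proliferation marker Ki-67, had means of 0.73 and -0.25 and a slope of -0.37 (adjusted p = 0.449). Its second probe, well above background on 29 arrays, was 1.85 log2 units higher early than late, beside 0.98 for the first. No member had all 8 early arrays above all 12 late ones, and 3 of the genes tested did (0.0137%).

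The trend was also taken as a difference between periods. In a fit of the same arrays with 2 periods in place of days, 7 mitosis genes were lower from Week 3 on at an adjusted p under 0.05, against 0.0778% of all genes: Cenpf (adjusted p = 0.0110), Birc5, Ccnb2, Plk1, Cdk1, Cenpe and Ccna2. The median difference of the mitosis genes was -1.49 log2 units, beside 0.07 over all genes. This fit was added after the values had been seen. With the LFC arrays alone the median mitosis slope was -0.81 and no member passed (no gene did, 0%), and with the HFC arrays alone it was -0.95 and 5 mitosis genes passed as lower (0.435% of all genes). The number that passed over both diets depended on single time points: it was 0 without Week 0, 0 without Week 18, 1 without Week 15, 2 without Day 10 and 3 without either Day 14 or Week 9. No share over all genes is given beside these counts. Across these omissions the median mitosis slope stayed between -0.98 and -0.80. The median was -0.84 with scan day as a random block.

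The 18 Kal-1 arrays took no part in these fits. On all 30 arrays of Week 3 to 18, including those, 29 lay below the early median for Cdk1, Birc5, Cenpf, Cenpe and Ccnb2. The count was 28 for Plk1. Over the tested mitosis genes it ran from 9 (Bub1 and Kif11) to 30 (Ccnb1). The early median and the LFC and HFC arrays among the 30 had entered the fits, so these counts are not independent of them. No share over all genes is given beside them. For Birc5 (0.72), Cenpf (-1.38) and Cenpe (0.11) the 1 array not below was HF75 at Week 3. For Cdk1 (-2.15) and Ccnb2 (0.31) it was HF20 at Week 6. Both were among the 11 bright arrays, as was LFC at Week 9. HF75 at Week 3 also had the lowest mean level of brown adipocyte markers of all arrays, -1.31.

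The number of mitosis genes that could be seen above background moved with the trend. Of 24 mitosis genes, 22 to 24 were well above background on each early LFC or HFC array, and 8 to 22 (median 18) on each late one. On the Kal-1 arrays the number was 5 to 23 (median 14). Detection of all spots moved the same way: the median share of spots well above background was 65.3% on the early arrays, 61.7% on the late ones and 55.5% on the Kal-1 arrays. The median 75th percentile was 362, 188 and 138 intensity units in turn. The part of array brightness in the mitosis count was not tested. Aurkb, an Aurora kinase of the passenger complex, was well above background on all 8 early arrays and on 2 of the 12 late ones. The 1531 genes that were never well above background had a median slope of 0.86, and 100% of them had a slope above 0. Under quantile normalization their median was 0.03, with 67.4% above 0. With normexp their median was 0.92 at offset 50 and 1.61 at offset 0, with 100% above 0 in each. Birc5, Cdc20, Mki67 and Ccnb2 had negative slopes under the processed signal, quantile normalization and both normexp corrections. With normexp at offset 50 the slopes were -0.48 for Birc5 (unadjusted p = 0.0368), -0.42 for Cdc20 (0.122), -0.43 for Mki67 (0.0649) and -0.42 for Ccnb2 (0.0937). Most of the tested mitosis genes had slopes above 0 with that correction, as given above. Birc5, Cdc20 and Mki67 were well above background on all 38 arrays, and Ccnb2 on 37. Bub1, also well above background on all 38 arrays, had slopes above 0 under each of these scalings, of 0.67 with normexp at offset 50.

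None of 14 S phase genes fell at an adjusted p under 0.05, beside 0.54% of all genes. At an unadjusted p under 0.05, 3 were lower over time, beside 6.42% of all genes, namely Rrm2, Mcm7 and Mcm5. The median slope was -0.25 log2 units per 10 weeks, and 11 of 14 slopes were below 0. Whether the 2 groups of genes differ in slope was not tested.

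The slopes of the helicase genes ran from -0.63 to 0.15. Mcm5 was between -1.44 and 0.48 early (median 0.15) and between -2.16 and -0.20 late (median -1.02), with a slope of -0.63 (SE 0.27, adjusted p = 0.181). Mcm6 was between 0.66 and 3.54 early (median 2.78) and between -1.09 and 2.80 late (median 1.55), a 2.17-fold difference of means with a slope of -0.63 (SE 0.33, adjusted p = 0.279). Mcm7 was between 1.06 and 1.48 early and between 0.24 and 1.73 late, with a slope of -0.33 (SE 0.14, adjusted p = 0.175). The early Mcm7 arrays lay inside the late range, and its means differed 1.14-fold. Mcm4 had a slope of 0.15 (SE 0.32), with ranges of 0.90 to 3.16 early and 0.75 to 3.33 late. The levels of Mcm3 and Mcm6 correlated at -0.55 and -0.49 with the log2 of the 75th percentile over 38 arrays, and at 0.47 and 0.24 over the 27 dim arrays.

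The nucleotide genes and Pcna had slopes between -0.66 and -0.10. Rrm2, the regulated subunit of ribonucleotide reductase, was between -3.39 and -1.45 early (median -2.10) and between -4.93 and -2.31 late (median -3.20), with a slope of -0.66 (SE 0.26, adjusted p = 0.151). Its large partner subunit Rrm1 had means of 0.92 and 0.93 and a slope of -0.10 (SE 0.17). Tyms, which makes thymidylate, had means of 0.88 and 0.29 and a slope of -0.33 (adjusted p = 0.290). Pcna had means of 3.71 and 3.28 and a slope of -0.24 (adjusted p = 0.5002). Of these 4 slopes, Rrm2 had the only 95% interval that left out 0, and its slope was 0.44 under normexp and ran from -1.13 to -0.37 as each time point was left out.

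**Figure D3:**
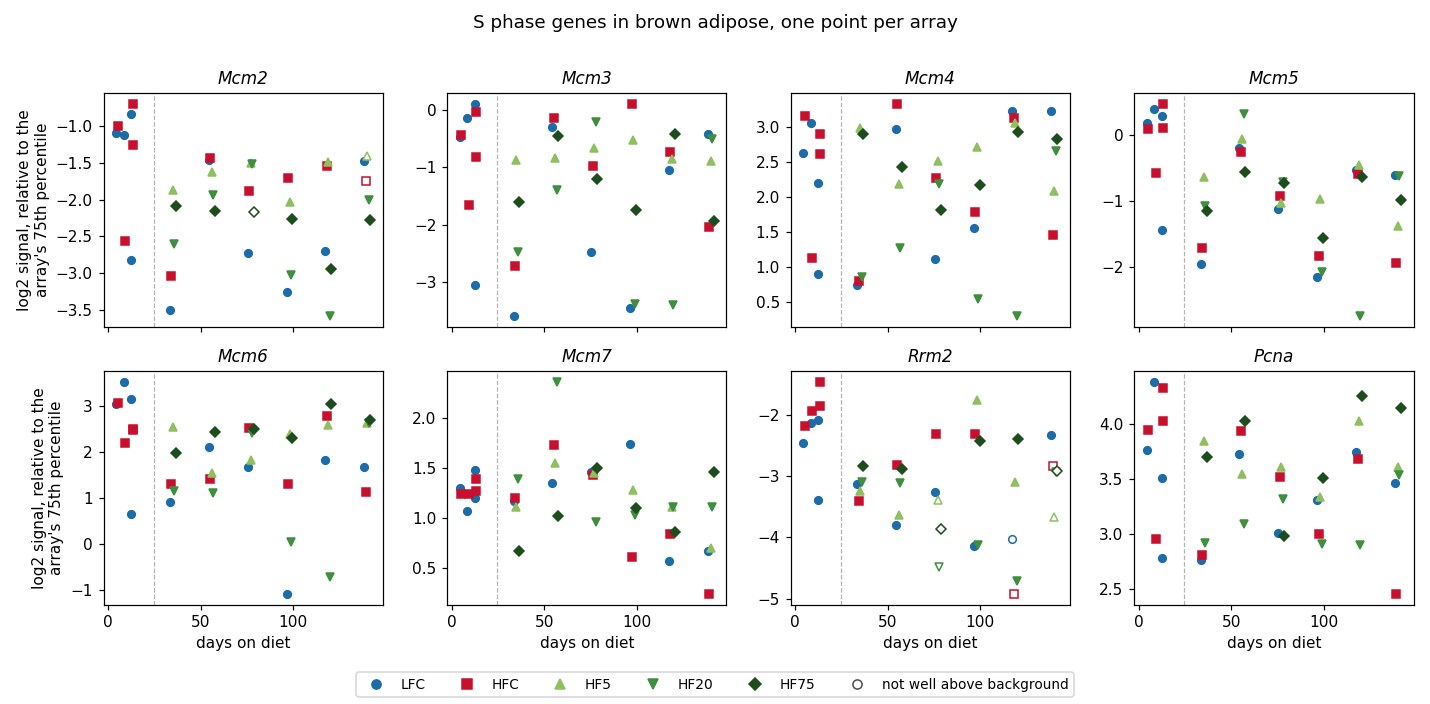
Log2 level relative to the 75th percentile of the array against days on diet for Mcm2 to Mcm7, Rrm2 and Pcna, 1 point per array, drawn as for the mitosis genes. The early and late ranges overlap in every panel, for Mcm5 at -1.44 to 0.48 and -2.16 to -0.20 on the LFC and HFC arrays.

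Bub1 and Kif11 were the 2 mitosis genes with slopes above 0. Bub1, a checkpoint kinase at the kinetochore, had a slope of 1.204 (SE 0.40, adjusted p = 0.0957), and its level correlated at -0.92 with the log2 75th percentile of the 38 arrays. Its second probe, well above background on 14 arrays, was 1.34 log2 units higher early than late, while the first was 0.89 lower, so its direction rests on the probe. Kif11, the motor that pushes spindle poles apart, had a slope of 1.14 (SE 0.68) and was well above background on 11 of 38 arrays. The second probes of Ccnb2, Kif23, Rrm2 and Tyms followed the first, with correlations of 0.90, 0.89, 0.78 and 0.93 over 38 arrays. Those of Cdk1 and Cenpf did not, at -0.35 and -0.32, and were well above background on 2 and 0 arrays. Nor did the second probes of Cenpe (correlation 0.00087, well above background on 8 arrays), Tpx2 (-0.08, on 9) and Ccne1 (-0.0049, on 24). With second probes the slopes of Cenpf, Cdk1 and Cenpe were 0.89, 0.60 and 0.31.

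**Figure D4:**
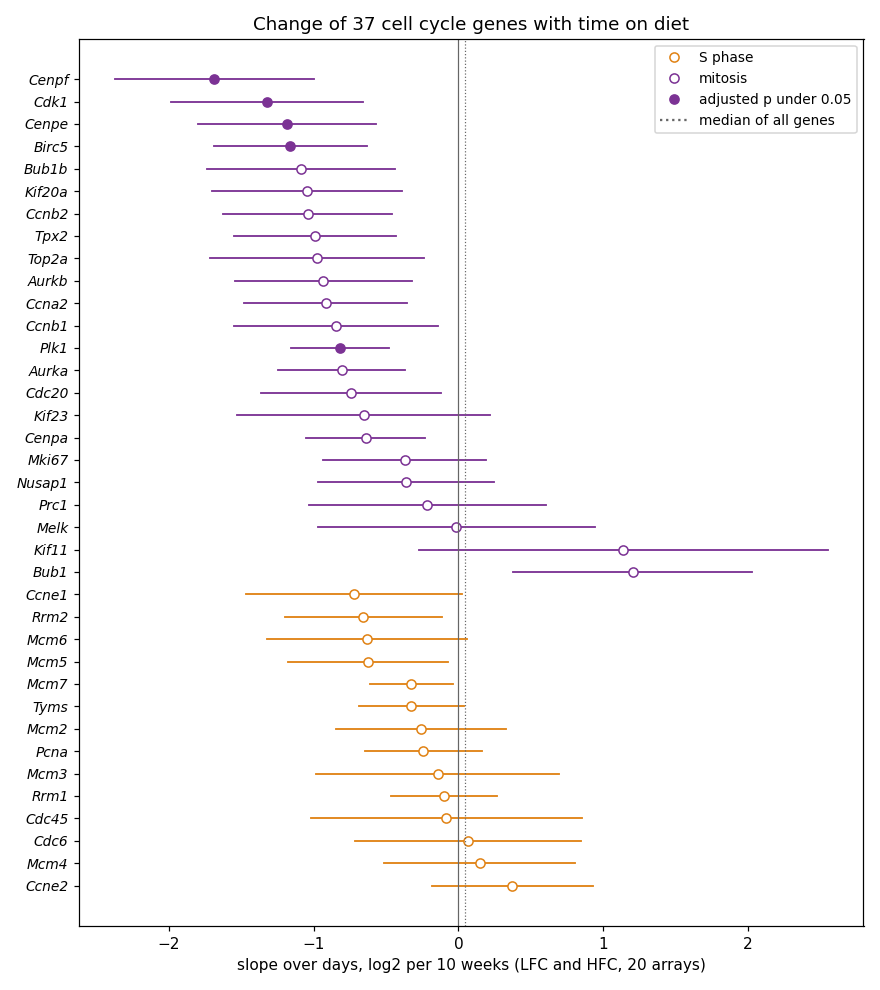
Slope of each of the 37 tested members in log2 units per 10 weeks over the 20 LFC and HFC arrays, with 95% confidence intervals, S phase and mitosis genes apart. Filled points passed an adjusted p under 0.05 and the dotted line is the median of all genes tested (0.04). Cenpf lies lowest at -1.69 and Bub1 highest at 1.204.

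Genes of the cycle outside the 38 were taken from further lists. Of 20 other mitosis genes tested, 2 fell with days on diet: Cdca8, a subunit of the passenger complex (-1.11, SE 0.21, adjusted p = 0.0278), and Ect2, which sets the cleavage furrow (-1.04, SE 0.20, adjusted p = 0.0278). The median slope of that list was -0.38. The share of all genes that fell was the 0.54% given above, and 1.09% rose. Of 17 other replication genes, Uhrf1, which keeps DNA methylation through replication, fell (-0.87, SE 0.18, adjusted p = 0.0348) and Rpa2, a single-strand DNA binding subunit, rose (1.68, SE 0.35, adjusted p = 0.0316), with a median of -0.18. None of 17 genes of cell cycle entry and none of 6 tested CDK inhibitors passed, and the smallest adjusted p among the entry genes was 0.0574 for Cdk4 (-0.62). These further lists were not refitted under the other scalings. No gene of the cell type marker lists passed. The medians were 0.75 for erythroid, 0.19 for lymphocyte, 0.14 for endothelial and 0.06 for preadipocyte and stroma markers. They were -0.07 for macrophage, -0.20 for brown adipocyte and -0.25 for skeletal muscle markers. The part of these markers in the trend was not tested.

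The high fat diet was compared with the low fat diet at matched time points to ask whether diet alters expression of these genes. None of 37 members differed at an adjusted p under 0.05 over all 10 time points, nor did any of the genes tested (0%), and the smallest adjusted p of a member was 0.644. At an unadjusted p under 0.05, 5 mitosis genes and no S phase gene differed, beside 6.98% of all genes. The median difference, HFC minus LFC, was 0.17 for S phase and 0.11 for mitosis genes, beside 0.06 over all genes, and the mitosis median was -0.17 under quantile normalization. Aurka, the Aurora kinase of the spindle poles, was 0.64 log2 units lower on HFC (SE 0.22, 95% interval -1.12 to -0.15), and was higher at 1 of 10 time points. Aurkb was well above background on 5 LFC and 5 HFC arrays and on neither diet's array at Week 6, 12, 15 and 18, and its difference was 0.84 (SE 0.30), above 0 at 9 of 10 time points. Melk, a kinase of dividing progenitor cells, was 1.26 higher (SE 0.47), at 8 of 10, Bub1 1.27 higher (SE 0.49) at 6 of 10, and Nusap1, a spindle protein, 0.95 higher (SE 0.38) at 7 of 9. Nusap1 has no value on LFC at Week 6, where its spot was an outlier. The level of Bub1 correlated at -0.92 with the log2 75th percentile of the 38 arrays, and 4 LFC and 2 HFC arrays were bright.

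Marker genes of several other cell types had higher values on HFC. All 9 lymphocyte markers were above 0, 6 of them at an unadjusted p under 0.05, with a median of 1.09. Their summed level ran from -1.63 to 0.98 (median 0.12) on LFC and from -0.81 to 2.02 (median 1.18) on HFC, and none of the 9 passed the adjusted threshold. All 6 erythroid markers (median 0.90) and all 6 endothelial markers (median 0.53) were above 0 as well. Both of these lists were lower on bright arrays, which were 4 of LFC and 2 of HFC. On LFC the mean endothelial level was 1.76 to 1.90 on bright arrays and 4.57 to 5.15 on dim ones. The mean erythroid level on LFC was -1.14 to -0.55 on bright arrays and 0.58 to 3.17 on dim ones. The part of brightness in the marker differences was not tested. Nor was the part of the markers in the differences of Melk, Aurkb and Nusap1.

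From Week 3 to 18, no member differed between HFC and LFC after adjustment, as against 2 genes of all tested (0.00915%). At an unadjusted p under 0.05, 6 members differed, beside 14.4% of all genes. Melk was higher on HFC at 6 of 6 time points, by 0.12 to 5.20 with a median of 1.74 (mean 1.999, SE 0.67, adjusted p = 0.335). Rrm1 was lower at all of them, by a mean of -0.69 (SE 0.25), and so was Aurka, with -0.86 (SE 0.34), both at the same adjusted p. Aurka was not well above background on HFC at Week 9 and 18, and its value was 0.040 under normexp. The product of diet and day, which asks whether the slope differed between diets, passed for no member and no gene (0%). At an unadjusted p under 0.05 it was reached by 4 members, beside 15.3% of all genes, led by Bub1 (1.68, SE 0.57, adjusted p = 0.188), Cenpa (-0.78, SE 0.28, adjusted p = 0.212) and Melk (1.55, SE 0.57, adjusted p = 0.220). The level of Bub1 was lower on brighter arrays, as given above.

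Each Kal-1 dose was compared with HFC over Week 3 to 18, and the 3 comparisons share the same HFC arrays. No member passed in any of them, nor did any gene (0% in each). At 5 µg no member reached an unadjusted p under 0.05, beside 5.45% of all genes, and the median differences were 0.31 for S phase and 0.02 for mitosis genes. At 20 µg 2 members reached it, beside 33.1% of all genes, whose median was -0.20: Melk (-1.71, SE 0.67, adjusted p = 0.120) and Bub1 (-1.83, SE 0.80, adjusted p = 0.129). Bub1 was at -1.38 to -0.52 on the bright HF20 arrays and at 3.62 and 2.08 on the dim ones. On HFC it was at -1.05 on the bright array of these weeks and at 1.57 to 4.81 on the dim ones. The mitosis median at this dose was -0.02, and 0.73 under quantile normalization. At 75 µg 1 member reached it, Pcna (0.54, SE 0.25, adjusted p = 0.539), beside 9.14% of all genes. Its value ran from 0.31 to 0.75 as each time point was left out, and was -0.054 under normexp at offset 0.

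Melk was the member with the lowest or next lowest p in each of the 3 comparisons. Its log2 level from Week 3 to 18 had means of -4.81 on LFC, -2.81 on HFC, -4.08 on HF5, -4.52 on HF20 and -4.16 on HF75. Its signal stood well above background on 5 of 6 HFC arrays, 3 of 6 each of LFC and HF20, 1 of 6 of HF75 and no HF5 array. Cdk1, Ccnb1, Bub1b and Aurkb were not well above background on any HF5 array either.

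Among the 3 doses, 1 of 37 members passed the test of any difference, beside 13.4% of all genes, and 6 reached an unadjusted p under 0.05, beside 37.3% of all genes. The member that passed was Kif11. It was not well above background on any of 6 HF20 arrays, with levels between -8.58 and -3.62 (median -8.09), and was so on 3 of 6 arrays of HF5, between -5.78 and -0.26 (median -3.55), and on 3 of 6 of HF75, between -5.04 and -0.57 (median -3.31). The ranges overlapped. The adjusted p was 0.04002. No fold is given, since no HF20 array and only 3 arrays of each other dose were well above background. On the dim HF20 arrays Kif11 was at -4.74 (Week 9) and -3.62 (Week 18), beside -3.81 and -3.29 on HF5 at those weeks. Of the 6 HF20 arrays, 4 were bright, against none of HF5 and 1 of HF75, and no member passed with brightness class in the model. The number of members that passed was 0 without Week 3, 6, 12 or 15 and 4 without Week 9 or Week 18. These counts, and the fit with brightness class, have no share over all genes beside them. They do not tell whether members passed more often than other genes. Mcm4 and Mcm6, lower in HF20 than in HF5 by -1.28 (SE 0.47, adjusted p = 0.0764) and -1.15 (SE 0.48, adjusted p = 0.0780), differed between HF75 and HF5 by -0.08 and 0.24. Endothelial markers moved with the same difference, 5 of 6 being lower in HF20 than in HF5 at an adjusted p under 0.05 in the test among doses, with a median of -2.36. Their summed level had a median of 5.10 on HF20, 8.61 on HF5 and 8.17 on HF75. Their mean level was at most 1.83 on the 4 bright HF20 arrays. On the dim HF20 arrays it was 4.48 (Week 9) and 4.92 (Week 18), beside 4.48 and 4.29 on HF5. Mcm4 was at most 1.27 on the bright HF20 arrays. On the dim ones it was 2.19 and 2.65, beside 2.52 and 2.09 on HF5. Mcm6 was at most 1.16 on the bright ones, and 2.43 and 2.63 on the dim ones, beside 1.84 and 2.63 on HF5. The part of the endothelial markers in the values of Mcm4 and Mcm6 was not tested.

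**Figure D5:**
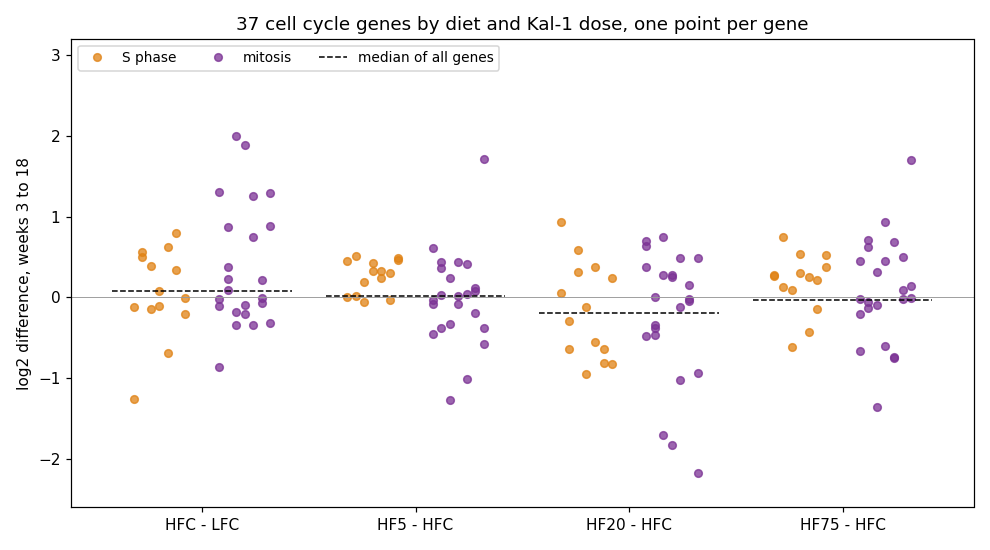
Log2 difference of each of the 37 tested members over Week 3 to 18 for HFC minus LFC and for HF5, HF20 and HF75 minus HFC, S phase and mitosis genes coloured apart. The dashed line in each column is the median of all genes tested, at 0.07, 0.01, -0.20 and -0.03, and Melk, not well above background on any HF5 array, stands at 1.999, -1.27, -1.71 and -1.35.

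Within Week 3 to 18 the trend over weeks was taken over all 30 arrays of the 5 groups. Aurka fell, by 0.92 log2 units per 10 weeks (SE 0.23, adjusted p = 0.0477), and was the only one of 37 members to pass, beside 0.21% of all genes that fell. This count was 0 without Week 3, 6 or 18 and 2 without Week 9 or 15, and Aurka had a slope of 0.11 under normexp correction. The counts under these omissions have no share over all genes beside them. With scan day as a random block Aurka did not pass (adjusted p = 0.215). At an unadjusted p under 0.05, 5 mitosis genes were lower, beside 7.52% of all genes, and 1 was higher, beside 20.1%. That was Bub1, with a slope of 1.71 (SE 0.55, adjusted p = 0.0665), which ran from 0.78 to 2.09 as each time point was left out and was -0.11 with its second probe. The median slope over these weeks was -0.35 for mitosis genes and 0.13 for S phase genes, beside 0.12 over all genes.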

How the data were processed

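Total RNA was hybridised with Cy3 to one-colour Agilent arrays, 1 array for each group and time point. The deposited scanner files give intensity per spot. Their processed signal, which the authors obtained with Feature Extraction (10.5.1.1 in the file headers, 9.1 in the submitters' processing notes), has had background removed and carries no scaling between arrays. A deposited table of log2 values, which the authors made in GeneSpring with the LFC array of each time point as baseline, served only as an alternative, with and without Week 15, whose columns did not follow the probe names. Its other annotation was not used.

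Outlier spots were dropped, spots of a probe averaged, and log2 processed signal was reduced by that of each array's 75th percentile. The probe with the highest mean stood for a gene, and a gene was kept if well above background on 6 or more of the 38 arrays. No fold is given for a gene not well above background on any array of a group. Fits used limma 3.58.1 (lmFit, eBayes) in R 4.3.3 with the packages data.table (version 1.17.8) and statmod (version 1.5.0), two-sided, adjusted by Benjamini-Hochberg over 21856 genes, with a threshold of 0.05. All p-values in the text come from limma. The comparison of HFC with LFC, and that of their slopes, carried the time point as a block, and so did the dose comparisons, fitted on the 30 arrays of Week 3 to 18. The trend over days carried diet and no time point. Bright arrays are those with a 75th percentile above 600. Groups came from the labels. The steps were tested on simulated data. The small number of arrays limits precision.

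In each comparison the genes named by rule were the members that passed, or else the 3 smallest p-values, with S phase and mitosis apart in the trend over days. Further members named for their role were chosen after their values were seen. The members and the other lists were chosen with earlier results of these data known. Alternatives were quantile normalization, normexp (offset 50), 3 other filters or floors, mean over probes, brightness class or the log2 75th percentile in the model, array weights, slide and scan day blocks, Day 14 joined with Week 0, log2 days, and each time point left out. Fits by period, by diet, by dim arrays, with second probes, with normexp at offset 0, without arrays under 60 and without HF75 at Week 3 were added after the values had been seen.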

Additional observations from a re-analysis of the deposited data

Results flagged for a closer look

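In 185 sets of 6 to 10 arrays (each tested member in each group), 7 held an array that stood apart from the others, by a gap to the nearest array larger than the 95% critical value of Dixon's test. Chance gives such a gap in about 5% of sets, and 7 of 185 is below that share. The 7 sets are listed as a description. On HF75 at Week 3, 1 of the bright arrays, 3 mitosis genes stood above the other HF75 arrays. Cdk1 was -3.01 there, the next array being -4.44. Birc5 was 0.72, the next being -0.89. Cenpf was -1.38, the next being -4.45. On that array the brown adipocyte and erythroid markers had their lowest mean levels of all arrays, -1.31 and -1.68. The macrophage markers and the preadipocyte and stroma markers had their highest, 0.57 and 2.83. The part of these markers in the 3 mitosis values was not tested. Ccnb2 was -2.83 on HF5 at Week 6, below the next value of -1.49. Rrm2 was -1.75 on HF5 at Week 12, above the next value of -3.09. Mcm7 was 2.36 on HF20 at Week 6, above the next value of 1.38. Mcm2 was -2.94 on HF75 at Week 15, below the next value of -2.28.

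Kif11 passed the moderated F test among the Kal-1 doses (adjusted p = 0.04002). The fitted difference, HF20 minus HF5, was -3.88, against a group in which Kif11 was not well above background on any array. It was at -4.74 and -3.62 on the 2 dim HF20 arrays, and between -8.58 and -7.91 on the 4 bright ones.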

How the results depend on the processing

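The counts of members in this paragraph have no share over all genes under the same setting beside them. They do not tell whether members were called more often than other genes. The count that passed in the trend over days was 5 in the main fit, all lower over time. The median mitosis slope stayed below 0 in every alternative but both normexp corrections. The count was 16 under quantile normalization and with array weights, 17 with brightness class in the model, 11 with dim arrays only and 9 by period with dim arrays only. It was 3 with log2 of days and with second probes, 2 without a filter and with the mean over probes, and 1 with normexp at offset 50 and with genes well above background on every array. It was 0 with the log2 75th percentile as covariate, scan day as a block, Day 14 and Week 0 joined, arrays under 60 left out, normexp at offset 0, LFC arrays only, and by period with a floor. For differences among the doses (1 member) the count was 6 with slide as a block, 5 without arrays under 60, and 2 with a floor or with genes well above background on every array. It was 0 with either normexp, no filter, the mean over probes, brightness class, the log2 75th percentile, second probes or HF75 at Week 3 left out. For the trend over Week 3 to 18 (1 member) it was 2 under quantile normalization and 0 with either normexp, no filter, genes well above background on every array, a floor, brightness class, the log2 75th percentile, array weights, scan day, log2 of days, arrays under 60 left out or dim arrays only. Leaving out each time point gave 0 to 5 for the trend over days, 0 to 4 among doses, 0 to 2 for Week 3 to 18 and 0 to 1 for HF20 against HFC, where no member had passed (the 1 came without Week 3). The other comparisons stayed at 0 throughout.

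The labels' replicate numbers follow accession order, so the time point was the block. Without this block the counts were 0 for each diet and dose comparison with HFC or LFC and 1 among the doses, as with it.

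Signs turned in these slopes over days: with normexp at offset 50, Rrm2 0.44, Cenpf 0.23, Plk1 0.18, Cdk1 0.40 and Aurka 0.37; at offset 0, Rrm2 0.46, Plk1 0.056, Cdk1 0.33 and Aurka 0.36; with second probes, Ccne1 0.54, Cenpf 0.89, Cdk1 0.60 and Cenpe 0.31. Over Week 3 to 18 the slope of Aurka was 0.11 with normexp at offset 50, and those of Bub1 and Ccne1 were -0.11 and 0.59 with second probes. Aurka was 0.040 for HFC against LFC in these weeks, -0.17 for HF5 and -0.53 for HF20 against HFC at offset 50, and -0.37 and -0.45 for these doses at offset 0. Pcna was -0.054 for HF75 at offset 0. Second probes were well above background on 24 arrays for Ccne1, 14 for Bub1, 8 for Cenpe, 2 for Cdk1 and 0 for Cenpf. The cause of these turns was not tested. Among single genes, 784 other values kept direction and side of the threshold, 100 no longer passed and 25 newly passed. Signals near background on the late and Kal-1 arrays limit Cdk1, Cenpf, Top2a, Aurkb and Kif11.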
